A study of Mus musculus with 9 samples.

Results

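The transcripts described here are assembled long noncoding RNA (lncRNA) rows that lie antisense to a protein-coding gene in mouse lung. They were taken from a table of expression values as the rows that carry an assembly identifier (XLOC) in place of an Ensembl gene, reach a mean of at least 0.1 FPKM over the 9 libraries, overlap the body of a protein-coding gene of GENCODE M21 on the opposite strand, and overlap none on their own strand. FPKM counts sequenced fragments scaled by transcript length and by the size of the library, so it is a level per length. The table held 60108 rows, of which 3729 were assembled, 2417 of these reached 0.1 FPKM, and 1467 were antisense by this rule. The 1467 rows came from 1406 loci, since a locus can hold several transcripts, and faced 1275 coding genes, of which 151 had more than 1 row opposite to them and so do not give independent values. Just inside the limit lay XLOC_096297 with a mean of 0.10025 FPKM, and just outside it XLOC_061319 with 0.0999670 FPKM.

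An antisense transcript is read from the DNA strand opposite to a gene, so its sequence is the reverse complement of the gene's. Natural antisense transcripts may start inside a gene and run out past its promoter, may come in from beyond its end, or may lie wholly within it, and some are known to affect the chromatin, splicing or stability of the RNA they face, while others have no known role. In lung, ventilation with large breaths stretches the alveolar wall and is known to bring in neutrophils and to induce cytokines and stress-response genes.

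The libraries came from whole lungs of male C57BL/6 mice aged 6 to 8 weeks. For ventilator-induced lung injury (VILI) the mice received breaths of 20 ml/kg from a ventilator during 4 hours. They were killed 0 hours or 6 hours after it ended, with 3 libraries in each of these groups. The 3 control libraries came from intubated mice that breathed without the ventilator. A whole lung holds many cell types, so more cells of a type and more RNA per cell cannot be told apart in these values.

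The strand of a row is what defines it, and the sources disagree on how strand was recorded. The labels name an Illumina TruSeq RNA kit of a kind that does not mark the strand, while the study's methods name a directional kit, and neither says whether fragments were assigned to rows by strand. Without such assignment, reads of a gene and of its antisense partner cannot be told apart.

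VILI 6 hours replicate 1 stood apart from the other libraries of its group. The summed level of 18 neutrophil genes was 525 FPKM in it, 1106 and 2285 FPKM in replicates 2 and 3, 602 to 1094 FPKM at VILI 0 hours and 66.7 to 76.7 FPKM in the control libraries. The summed level of 7 erythroid genes was 489 FPKM in it and between 3226 and 5421 FPKM in the other 8 libraries. Replicate 3 differed in another respect, with 26 inflammatory mediators summing to 2066 FPKM, against 291.7 and 317.2 FPKM in replicates 1 and 2, 187 to 230.4 FPKM at VILI 0 hours and 114.9 to 149.3 FPKM in control. Alveolar type 2 genes, a check of the tissue, summed to between 16310 and 20480 FPKM in every library. The main counts for VILI 6 hours are therefore also given without each of its libraries, of which replicate 2 had the highest antisense level. Leaving out libraries describes how far the counts rest on them. What part cell composition had in the differences was not tested.

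The rows fell into 2 kinds by their length. For 714 rows (48.7%) the length given in the table equalled, to the base, the exonic bases of a GENCODE transcript of the opposite gene that lie between the ends of the row, with 2 to 30 exons in that stretch (median 3). These rows are called mirrored below. All 714 lay within the gene, and they faced 623 genes. Both of their ends fell in exons, where among transcripts of equal match those whose exons hold both ends were preferred. The match was sharp: 1 row was shorter than the nearest transcript by 1 base, 10 were longer by 1 base and 9 by 2 bases, and 47 differed by 1 to 10 bases in either direction. The table does not list the exons of a row, so the joints shown next are inferred from the equality of lengths.

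**Figure D1:**
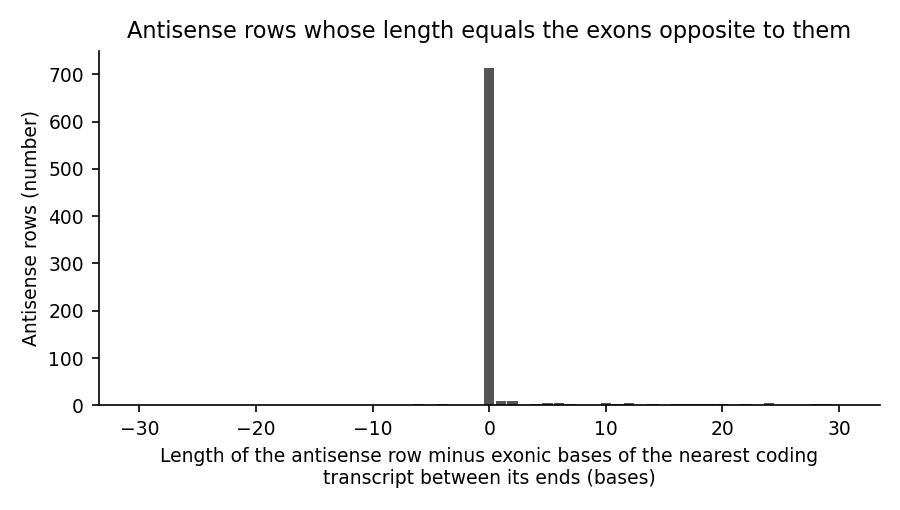
Number of antisense rows (vertical axis) by the difference between the length of the row and the exonic bases of the opposite coding transcript closest to it in length between the same ends (horizontal axis, in bases). A single bar of 714 rows stands at 0, and the bars at 1 and 2 bases hold 10 and 9 rows.

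What a mirrored row would look like is shown for 8 of them, chosen because they carry calls described below. Each line is a stretch of 60 bases of the coding sequence read from the GENCODE M21 transcript (GRCm38), reverse-complemented so that it runs 5′ to 3′ along the row, with the 4 bases on each side of the inferred joint in capitals. The genomic blocks on both sides of the intron are given with each line. The Clic4 message is given once in the sense direction for comparison.
XLOC_106008, opposite to Clic4, chr4:135238942-135238971 and chr4:135272518-135272547 (the row on the plus strand): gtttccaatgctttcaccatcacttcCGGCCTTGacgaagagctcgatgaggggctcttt
Clic4 messenger RNA, for comparison with the line above: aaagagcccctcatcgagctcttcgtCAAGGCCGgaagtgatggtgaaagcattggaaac
XLOC_009766, opposite to Arpc5, chr1:152766838-152766867 and chr1:152768861-152768890 (the row on the minus strand): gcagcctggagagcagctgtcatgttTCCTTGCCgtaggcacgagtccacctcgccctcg
XLOC_044133, opposite to Ap3b1, chr13:94477099-94477128 and chr13:94479727-94479756 (the row on the minus strand): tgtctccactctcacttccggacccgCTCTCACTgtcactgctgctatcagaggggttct
XLOC_151072, opposite to Rps25, chr9:44408054-44408083 and chr9:44408686-44408715 (the row on the minus strand): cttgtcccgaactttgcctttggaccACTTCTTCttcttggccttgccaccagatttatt
XLOC_024060, opposite to Luc7l3, chr11:94297891-94297920 and chr11:94299956-94299985 (the row on the plus strand): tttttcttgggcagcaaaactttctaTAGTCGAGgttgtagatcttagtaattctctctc
XLOC_105564, opposite to Map7d1, chr4:126236743-126236772 and chr4:126236896-126236925 (the row on the plus strand): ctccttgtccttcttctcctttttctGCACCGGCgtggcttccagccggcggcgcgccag
XLOC_100215, opposite to S100a8, chr3:90669653-90669682 and chr3:90669839-90669868 (the row on the minus strand): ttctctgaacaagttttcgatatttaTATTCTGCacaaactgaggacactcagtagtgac
XLOC_081739, opposite to Lcn2, chr2:32385491-32385520 and chr2:32385706-32385735 (the row on the plus strand): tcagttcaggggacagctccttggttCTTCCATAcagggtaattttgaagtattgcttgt

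The inferred row opposite to Clic4, a chloride intracellular channel protein of endothelium and other cells, passes 5 exon joints of the gene, including the one between exons 1 and 2 shown above, where the exons lie 33546 bases apart. That opposite to Map7d1, a microtubule-associated protein, passes 9 joints. The joint printed for Luc7l3, a splicing factor, lies between exons 6 and 7, and that for Lcn2, the siderophore-binding protein lipocalin 2, between exons 4 and 5.

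A different set, 267 rows (18.2%), started inside the gene and ran out past its start, an arrangement called head-to-head. Their own start lay a median of 3585 bases downstream of the gene's start, and within 1000 bases of it in 66 rows. Such rows cross the gene's promoter. Of the 259 coding genes involved, 205 had an entry under their symbol in the RefSeq promoter table (GRCm38.p6), and in 141 the 250 bases before the RefSeq start nearest to the GENCODE start lay wholly inside the row. The windows are shown for 3 of these genes whose head-to-head row was called in a comparison, in the direction of the gene, with every match to a searched motif in capitals.
Inhbb, chr1:119422249-119422498, minus strand, crossed by XLOC_003132: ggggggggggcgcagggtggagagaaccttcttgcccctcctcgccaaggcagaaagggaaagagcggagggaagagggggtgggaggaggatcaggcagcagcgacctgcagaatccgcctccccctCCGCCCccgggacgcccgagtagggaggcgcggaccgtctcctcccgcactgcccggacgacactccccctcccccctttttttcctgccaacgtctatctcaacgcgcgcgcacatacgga
H2-D1, chr17:35262844-35263093, plus strand, crossed by XLOC_069300: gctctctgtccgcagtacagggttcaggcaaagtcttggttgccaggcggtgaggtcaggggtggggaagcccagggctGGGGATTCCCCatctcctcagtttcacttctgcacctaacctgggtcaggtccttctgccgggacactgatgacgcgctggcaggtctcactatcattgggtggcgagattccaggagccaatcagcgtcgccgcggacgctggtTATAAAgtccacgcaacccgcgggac
Tmod1, chr4:46038972-46039221, plus strand, crossed by XLOC_107893: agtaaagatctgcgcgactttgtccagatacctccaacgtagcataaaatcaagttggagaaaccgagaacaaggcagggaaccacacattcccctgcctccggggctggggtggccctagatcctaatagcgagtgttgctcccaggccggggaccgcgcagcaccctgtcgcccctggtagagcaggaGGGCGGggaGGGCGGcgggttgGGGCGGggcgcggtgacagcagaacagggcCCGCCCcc

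The windows were searched on both strands for 5 motifs, none of which contains another, although matches can share bases. The GC box, GGGCGG, was present in 62.4% of the 141 crossed promoters and in 32.7% of all 32851 promoters of the table, which include noncoding genes. The NF-kappaB consensus was present in 16.3% and 7.25% of them. The TATA box, TATAAA, was present in 9.93% and 12.4%. The E-box letters CACGTG were present in 4.96% and 6.02%, and the AP-1 letters TGANTCA in 5.67% and 6.75%. The Tmod1 window held 4 GC boxes and the Inhbb window 1. The H2-D1 window held a TATA box and a pair of overlapping NF-kappaB matches. These matches describe letters and were not tested as sites.

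Most rows, 1056 (72.0%), lay within the gene, 122 (8.32%) started beyond the end of the gene and ended inside it (tail-to-tail), and 22 (1.5%) spanned the whole gene. Rows within genes were short, with a median length of 425 bases, against 1366 bases for head-to-head, 1986.5 for tail-to-tail and 2919.5 for spanning rows. Every row was shorter than its genomic span, so each was assembled as a spliced model, whose introns were not checked here. Of the 1467 spans 1459 overlapped an exon of the gene. On their own strand 53 rows overlapped a GENCODE lncRNA, and 63 faced more than 1 coding gene.

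The rows were weakly expressed. Their mean level had a median of 0.212 FPKM, with a range of 0.10025 to 6.60 FPKM, and 42 rows reached 1 FPKM. In 930 rows at least 1 library was listed at 0, in 246 rows at least 5 libraries were, and 537 rows were above 0 in all 9 libraries. Assembled rows that overlap no coding gene, 879 in number, had a median of 0.257 FPKM. The study gives the mapped reads of each library, but the fragments behind each FPKM value were not worked out here. No counting interval is therefore given. At such levels a short row rests on few fragments, and a value listed at 0 can be a failed estimate. Mirrored rows were lower and shorter than the others, with medians of 0.165 against 0.296 FPKM and 358.5 against 1125 bases. Among the mirrored rows 92 were above 0 in all libraries, and among the 753 others 445 were.

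The genes they faced were highly expressed. For 1199 rows (81.7%) the gene reached 10 FPKM, and 1421 of the 1466 rows with a measured gene were below it. The row's level varied little with that of the gene. Over genes under 1 FPKM the median row had 0.288 FPKM, and over genes of 100 FPKM or more it had 0.261 FPKM, so that the row as a share of its gene fell from 187% to 0.138%. In the bins between, of 1 to 10, 10 to 50 and 50 to 100 FPKM, the median share was 4.94%, 0.815% and 0.300%. Mirrored rows made up 1.35% of rows over genes under 1 FPKM and 23.8%, 53.0%, 63.1% and 56.1% in the bins above. These shares rest partly on the lower limit of 0.1 FPKM, which every row had to reach.

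**Figure D2:**
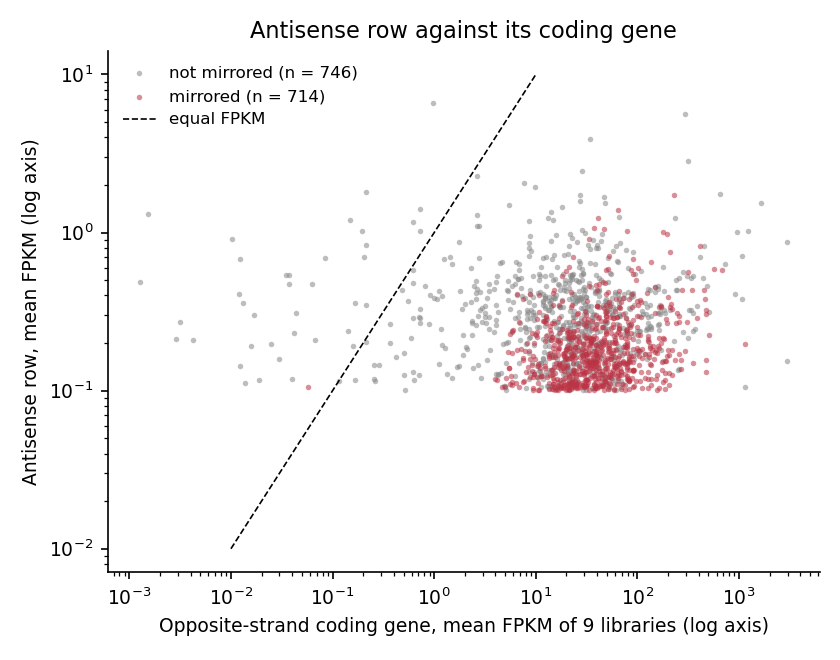
Mean FPKM of each antisense row (vertical, log axis) against the mean FPKM of its opposite-strand coding gene (horizontal, log axis) over the 9 libraries, for rows whose gene was above 0, with mirrored rows in red and the others in grey. Points lie below the dashed line of equal FPKM for 1421 rows, and mirrored rows gather over genes above 10 FPKM.

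The highest rows were not mirrored. XLOC_068035 had the highest mean, 6.60 FPKM. It lies at chr17:9001045-9031265 on the minus strand and ends inside 1700010I14Rik, an uncharacterized gene with a mean of 0.977 FPKM. Its levels were 7.18, 8.54 and 6.80 FPKM in the control libraries, 5.44, 4.22 and 5.06 FPKM at VILI 0 hours and 7.80, 5.40 and 8.98 FPKM at VILI 6 hours. All 3 VILI 0 hours libraries lay below all control libraries, with a log2 fold change of -0.61 ± 0.21 (standard error, SE; adjusted p = 0.359, limma with Benjamini-Hochberg adjustment), and the VILI 6 hours libraries overlapped both groups.

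The row with the next highest mean, XLOC_083236, lies within Calcrl at chr2:84332218-84332776 on the plus strand. Calcrl is the receptor for adrenomedullin and is a gene of lung endothelium. The row had 5.98, 9.13 and 6.16 FPKM in the control libraries and 6.28, 7.63 and 6.26 FPKM at VILI 0 hours. At VILI 6 hours it had 8.05 FPKM in replicate 1, and 0.379 and 1.01 FPKM in replicates 2 and 3. The group thus held a library at the control level and a pair far below it. Calcrl itself had 267, 231 and 156 FPKM at VILI 6 hours, against 342, 404 and 431 FPKM in the control libraries, with no such gap. The row opposite to Emp2, a membrane protein of alveolar type 1 cells, had 2.14 to 4.79 FPKM with overlapping groups. That opposite to Lrrc45, a centrosomal protein gene, had 1.77 to 1.87 FPKM in control, 1.95 to 2.75 FPKM at VILI 0 hours and 2.01, 2.1 and 0.906 FPKM at VILI 6 hours. Neither was called in any comparison.

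Levels over the 1467 rows lean towards VILI 6 hours by the choice of rows, because 259 of them had a mean under 0.1 FPKM over the other 6 libraries and so entered through VILI 6 hours, while 90 entered in this way through control and 113 through VILI 0 hours. Of the 259 rows 193 were mirrored and 66 were not. Levels are therefore given for the 1035 rows that reached 0.1 FPKM whichever group was left out. Their summed level was 361.3, 373.6 and 329.5 FPKM in the control libraries, 396.7, 356.0 and 373.2 FPKM at VILI 0 hours and 385.7, 485.1 and 415.1 FPKM at VILI 6 hours. The VILI 6 hours libraries overlapped those at VILI 0 hours and lay above the control libraries, with replicate 2 the highest. In the study's mapping statistics VILI 6 hours replicate 2 had the lowest share of mapped reads. It also had the fewest uniquely mapped reads, followed by replicate 3. Whether mapping bears on these levels was not tested. The median level of the 406 mirrored rows among them was 0.186, 0.179 and 0.144 FPKM in the control libraries, 0.239, 0.194 and 0.196 FPKM at VILI 0 hours and 0.213, 0.347 and 0.290 FPKM at VILI 6 hours. The median share of the coding gene was 0.301% ± 0.0689 (SD, n = 3) in control, 0.378% ± 0.0416 at VILI 0 hours and 0.494% ± 0.121 at VILI 6 hours, where replicate 1, at 0.364%, lay close to the highest control library, at 0.356%. For the 629 rows that were not mirrored the median level was 0.330 ± 0.0250 FPKM in control, 0.343 ± 0.0226 FPKM at VILI 0 hours and 0.357 ± 0.0518 FPKM at VILI 6 hours.

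**Figure D3:**
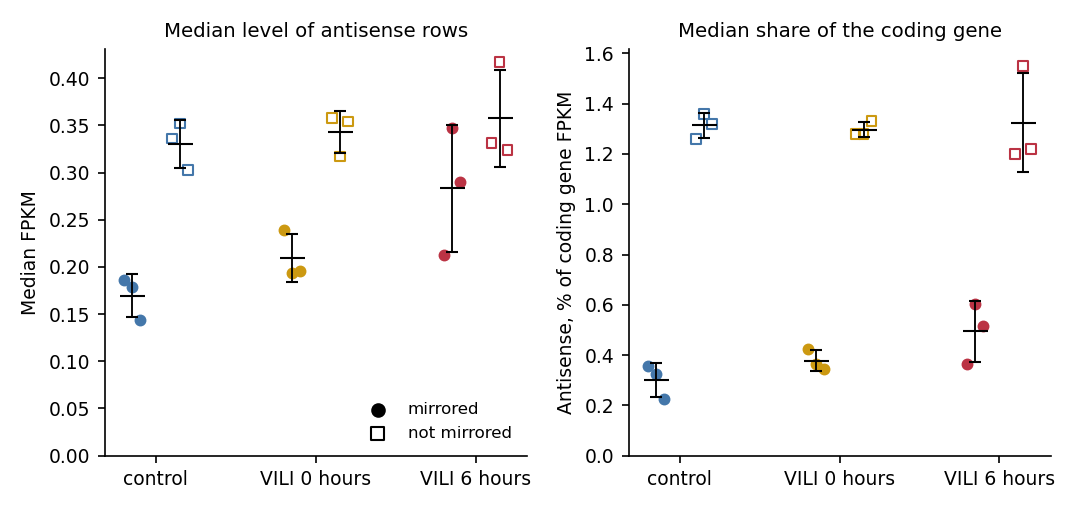
Median FPKM of the antisense rows (left) and median share of the coding gene's FPKM, in percent (right), over the 1035 rows that reached 0.1 FPKM whichever group was left out, in each library of control (blue), VILI 0 hours (yellow) and VILI 6 hours (red), with filled circles for mirrored and open squares for other rows, and bars for the mean and SD of 3 libraries. Mirrored rows had a median share of 0.301% ± 0.0689 in control and 0.494% ± 0.121 at VILI 6 hours, where replicate 1 lay at 0.364%.

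Each row was compared between groups with limma on log2(FPKM + 0.1), in a single fit of all 37142 coding, lncRNA and assembled rows that reached 0.1 FPKM. Rows under the unadjusted limma threshold of 0.05 are referred to as called, higher or lower. Fold changes on this scale understate the change of low rows. With Benjamini-Hochberg adjustment (limma) 0 antisense rows passed 0.05 in each comparison, beside 0.0512%, 0.0754% and 0.0215% of all rows for VILI 0 hours against control, VILI 6 hours against control and VILI 6 hours against VILI 0 hours, and the lowest adjusted p of an antisense row was 0.153, 0.0781 and 0.175 in that order. The calls named below are at the unadjusted threshold only.

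At VILI 6 hours more antisense rows were called higher than lower, which the choice of rows favoured in part. Against control 205 rows were called (14.0%), 159 higher and 46 lower. Among all rows tested 13.2% were called, 5.74% higher and 7.50% lower. Of the 159 rows called higher, 70 had entered through VILI 6 hours, and of the 46 called lower, 13 had entered through control. Such rows had to be higher in that group than over the other 6 libraries together, which favours the direction of their call. Groups did not overlap in 181 rows that were higher and 78 that were lower, beside 7.38% and 11.2% of all rows, counts on which the choice of rows bears likewise. Over the 1035 rows that reached 0.1 FPKM whichever group was left out, 86 were called higher and 33 lower, or 8.31% and 3.19%. Chosen in the same way, the 34603 rows of the whole table had 5.49% and 7.52%. The median log2 fold change was 0.23 over the 1035 rows and -0.08 over the 34603. For the 537 antisense rows above 0 in all libraries the median was 0.10, with 42 called higher and 20 lower. Without VILI 6 hours replicates 1, 2 and 3 these 537 had 78 and 46, 20 and 11, and 25 and 10 calls. Their medians were then 0.14, 0.04 and 0.13.

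Of the mirrored rows 95 were called higher and 8 lower, but 52 of the 95 had entered through VILI 6 hours. The others had 64 and 38 calls, of which 18 of the 64 had entered through it. Among the 1035 rows 41 of the 406 mirrored ones were called higher and 4 lower, with a median log2 fold change of 0.45, and 45 and 29 of the 629 others, with a median of 0.09. The counts depended on the VILI 6 hours libraries. Without VILI 6 hours replicate 1 the 1035 rows had 135 higher and 71 lower calls and a median of 0.35, with 53 and 9 calls in the mirrored rows and 82 and 62 in the others. Without replicate 2 they had 48 and 25 calls and a median of 0.15, with 28 and 5 in the mirrored rows and 20 and 20 in the others. Without replicate 3 they had 64 and 16 calls and a median of 0.23, with 34 and 3 in the mirrored rows and 30 and 13 in the others. When control replicates 1, 2 and 3 were left out in turn, the higher calls were 79, 79 and 65 and the lower calls 22, 15 and 22, so the number of lower calls rested on single libraries of both groups. Over all 1467 rows the fits without VILI 6 hours replicates 1, 2 and 3 gave 245 higher and 84 lower calls, 98 and 35, and 135 and 25, beside 8.99% and 15.3%, 4.36% and 5.53%, and 4.52% and 4.92% of all rows.

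By the level of the coding gene, among the 1035 rows, 15.4% of the 156 rows over genes of 100 FPKM or more were called higher at VILI 6 hours and 1.28% lower, and of the 143 rows over genes of 1 to 10 FPKM 2.1% and 5.59%. Of the 34603 rows of the whole table chosen alike 5.49% and 7.52% were. The median log2 fold change was -0.02, -0.23, 0.25, 0.37 and 0.54 in the 5 bins from the lowest to the highest gene level. Leaving out VILI 6 hours replicate 1, the rows over genes of 100 FPKM or more had 20.5% higher and 3.21% lower calls and those over genes of 1 to 10 FPKM 6.99% and 17.5%. Of all 37142 rows 8.99% and 15.3% were called in that fit, so the 17.5% lay near the share of all rows. Without replicate 2 the same kinds of row had 7.69% and 0.641%, and 1.40% and 5.59%, beside 4.36% and 5.53% of all rows. Without replicate 3 they had 7.05% and 0.641%, and 3.5% and 0.699%, beside 4.52% and 4.92% of all rows. Over genes of 1 to 10 FPKM higher calls then outnumbered lower ones. Leaving out control replicates 1, 2 and 3 gave 9.62%, 12.2% and 12.2% higher calls over genes of 100 FPKM or more, and 5 higher and 4 lower, 5 and 5, and 3 and 4 calls over genes of 1 to 10 FPKM. Of all rows 4.60%, 4.28% and 4.17% were then called higher and 5.05%, 4.80% and 5.06% lower. The shares by gene level therefore rested in part on single libraries. The medians without replicate 3 were 0.52 over genes of 100 FPKM or more and -0.08 over genes of 1 to 10 FPKM. By position, 6 of 109 tail-to-tail rows were called higher and 13 lower, with a median of -0.07, and 22 and 6 of 239 head-to-head rows. Tail-to-tail rows had 12 and 18 calls without replicate 1, 2 and 4 without replicate 2 and 2 and 6 without replicate 3, and head-to-head rows 33 and 13, 11 and 6, and 13 and 2. Without control replicate 1 or 2 tail-to-tail rows had 5 higher and 3 lower or 6 and 3 calls, so the order of their higher and lower calls turned with single control libraries, and without control replicate 3 they had 4 and 5. These differences between kinds of row were not tested. Over the full filter, the 879 assembled rows over no coding gene had 36 higher and 71 lower calls, and the 1981 annotated lncRNA rows had 48 and 290.

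**Figure D4:**
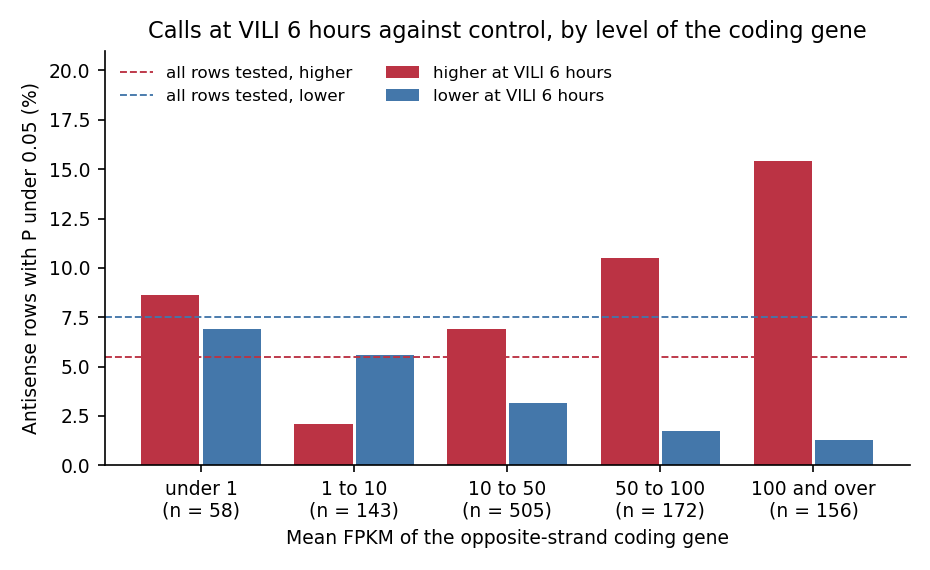
Percent of antisense rows called in the comparison of VILI 6 hours with control (vertical axis), higher in red and lower in blue, by the mean FPKM of the coding gene (horizontal axis, with the number of rows), over rows that reached 0.1 FPKM whichever group was left out, and dashed lines for the same percent over the 34603 rows of the whole table chosen alike. Higher calls are at 15.4% over genes of 100 FPKM or more (7.05% without VILI 6 hours replicate 3), and both colours lie at or under 8.62% over genes below 10 FPKM.

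Ager is the receptor for advanced glycation end products, a defining gene of alveolar type 1 cells. The row opposite to it, XLOC_069209, lies within the gene at chr17:34597870-34600935 on the minus strand, across 9 exons, and was not mirrored. It had 1.04, 1.27 and 1.09 FPKM in the control libraries, 1.31, 1.74 and 1.55 FPKM at VILI 0 hours and 2.88, 2.60 and 2.41 FPKM at VILI 6 hours. The 3 groups did not overlap and stood in this order. The log2 fold change against control was 0.40 ± 0.20 (SE) at VILI 0 hours, which was not called, and 1.15 ± 0.20 at VILI 6 hours (adjusted p = 0.101, limma). The VILI 6 hours call held under all 17 alternative settings. Ager itself had 615, 569 and 607 FPKM in the control libraries and 791, 714 and 529 FPKM at VILI 6 hours, overlapping groups with a log2 fold change of 0.16 ± 0.16.

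Clic4 faced the mirrored row XLOC_106008 at chr4:135216851-135272790, whose joint is printed above. It had 1.15, 0.704 and 0.937 FPKM in the control libraries, 1.31, 1.18 and 1.44 FPKM at VILI 0 hours and 1.22, 3.50 and 4.18 FPKM at VILI 6 hours. Replicate 1 stayed near the control level and the other VILI 6 hours libraries lay well above it. The log2 fold change was 1.43 ± 0.43 (SE; adjusted p = 0.260, limma). Without replicate 1 it was 1.95 ± 0.25 (adjusted p = 0.0107, limma). Clic4 moved alike, with 178, 174 and 172 FPKM in control and 184, 290 and 423 FPKM at VILI 6 hours.

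Arpc5, a subunit of the Arp2/3 complex that branches actin filaments, faced the mirrored row XLOC_009766. The row had 0.583, 0.877 and 0.381 FPKM in control and 1.43, 1.70 and 1.62 FPKM at VILI 6 hours, with no overlap and a log2 fold change of 1.29 ± 0.32 (SE; adjusted p = 0.195, limma). The gene had 68.5 to 73.9 FPKM in control and 72.7 to 94.8 FPKM at VILI 6 hours. Ap3b1, a subunit of the AP-3 vesicle coat, faced the mirrored row XLOC_044133 with a log2 fold change of 1.13 ± 0.33, while that of the gene was 0.09 ± 0.09. Ahnak, a large scaffold protein under the plasma membrane, faced the mirrored row XLOC_078682, which had a log2 fold change of 1.08 ± 0.41 and lost its call in 4 of 16 alternative settings, where the gene had -0.16 ± 0.11. In these rows the log2 fold change of the antisense row was the larger one, and the difference was not tested. The rows were named by the size of their rise and the genes were not, so this order follows in part from the choice.

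Rows that were not mirrored rose as well. XLOC_137115 ends inside Ucp3, a mitochondrial uncoupling protein, and had 0.199, 0.478 and 0.169 FPKM in control, 0.927, 0.601 and 1.03 FPKM at VILI 0 hours and 0.630, 1.21 and 1.06 FPKM at VILI 6 hours. Both ventilated groups lay above control, and the row was called higher in both, with log2 fold changes of 1.37 ± 0.41 and 1.53 ± 0.41. XLOC_149363, within Hemk1, a methyltransferase gene, had 0.238, 0.385 and 0.183 FPKM in control and 0.467, 1.24 and 2.20 FPKM at VILI 6 hours. H2-D1, a class I major histocompatibility gene with near-identical relatives, faced the head-to-head row XLOC_069300, whose log2 fold change was 1.05 ± 0.36, a call lost in 4 of 16 alternative settings. Its values are uncertain where fragments could be shared with those relatives, which also holds for the rows over Rps25, Rps29, Rpl4, Hba-a1, H2afz, Cyp4a32, Olfr750 and CAAA01147332.1.

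Fewer rows fell. Glis2, a zinc-finger transcription factor, faced the head-to-head row XLOC_061445 at chr16:4590932-4595123 on the minus strand, which starts 410 bases into the gene. It had 2.0, 1.93 and 2.21 FPKM in control, 1.28, 0.940 and 0.667 FPKM at VILI 0 hours and 1.76, 0.742 and 0.599 FPKM at VILI 6 hours. Every ventilated library lay below every control library, and the log2 fold changes were -1.05 ± 0.40 and -1.06 ± 0.40 (adjusted p = 0.384 and 0.326, limma), with each call lost in 5 of 17 alternative settings. Glis2 itself had 22.3, 16.9 and 19.7 FPKM in control, 11.9, 11.0 and 7.74 FPKM at VILI 0 hours and 19.8, 10.8 and 7.14 FPKM at VILI 6 hours, where replicate 1 again stayed near control.

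XLOC_058626, within Txndc11, a thioredoxin-domain protein, had 1.04, 1.16 and 0.921 FPKM in control, 0.375, 0.632 and 0.653 FPKM at VILI 0 hours and 0.658, 0.513 and 0.343 FPKM at VILI 6 hours. It was called lower in both comparisons, and Txndc11 itself had log2 fold changes of 0.09 ± 0.14 and 0.12 ± 0.14. The row lost its call in 4 of 16 alternative settings for VILI 0 hours and in 2 of 16 for VILI 6 hours. The row that enters H2afz, a histone variant gene, was likewise called lower in both, at 0.922, 0.835 and 0.895 FPKM in control and 0.462 to 0.650 FPKM in the ventilated libraries, and lost its call in 7 of 16 alternative settings for VILI 0 hours and in 11 of 16 for VILI 6 hours. Rows opposite to Olfr750, an olfactory receptor gene, Hspa9, a mitochondrial chaperone, and Med14, a Mediator subunit, had a lower call for VILI 6 hours and none for VILI 0 hours against control, with VILI 6 hours log2 fold changes of -0.96 ± 0.29, -0.81 ± 0.32 and -0.75 ± 0.30. The Hspa9 call was lost in 7 of 16 alternative settings and the Med14 call in 9 of 16. In 2 further rows the fall had a library at 0. Row 2 of XLOC_010797, within the actin nucleator gene Fmn2, had 1.18, 0.996 and 2.27 FPKM in control and 0.796, 0 and 0 FPKM at VILI 6 hours, and XLOC_138810, the mirrored row over Arglu1, had 0.761, 0.684 and 0.670 FPKM and 0.653, 0.135 and 0 FPKM.

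Directly after ventilation lower calls were a smaller share of the antisense rows than of the whole table, and higher calls a similar one. At VILI 0 hours 108 antisense rows were called (7.36%), 72 higher and 36 lower, or 4.91% and 2.45%. Of these, 19 of the higher and 10 of the lower rows reached 0.1 FPKM only through the group where they were high. Rows above 0 in all libraries had 20 higher and 17 lower calls, and the 1035 rows that reached the limit whichever group was left out had 47 and 25 (4.54% and 2.42%). Among the 1035 were 532 rows above 0 in all libraries, also with 20 and 17 calls. These 532 had 18 and 12 calls without VILI 0 hours replicate 1 and 23 and 9 without replicate 2, so their near-even split rested on single libraries. Among all rows 11.0% were called, 4.72% higher and 6.27% lower. Groups did not overlap in 134 antisense rows that were higher and 91 that were lower, beside 8.61% and 15.6% of all rows. The median log2 fold change of the 1467 rows was 0.15, against -0.08 for all rows. Over the 1035 rows the median was 0.13, and it was 0.07 without VILI 0 hours replicate 1 and 0.06 without control replicate 3. Leaving out each library in turn gave 35 to 58 higher and 10 to 31 lower calls among them, the fewest lower ones without control replicate 2. The comparisons of VILI 0 hours and of VILI 6 hours with control share the control libraries.

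Cyp4a32, a cytochrome P450 gene, was listed at 0 in 8 of the 9 libraries, while XLOC_109539 within it had 0.531, 0.591 and 0.564 FPKM in control and 2.17, 0.915 and 2.43 FPKM at VILI 0 hours. The log2 fold change was 1.44 ± 0.53, and at VILI 6 hours, with 0.532, 2.04 and 1.95 FPKM, it was 1.09 ± 0.53 and not called. The VILI 0 hours call was lost in 5 of 17 alternative settings. Rps25, a ribosomal protein, faced a mirrored row that was called higher, at 0.723, 0.617 and 0.762 FPKM in control and 1.24, 1.07 and 1.46 FPKM at VILI 0 hours, and lost the call in 8 of 16 alternative settings. Ppp1r12c, a regulator of myosin phosphatase, faced a head-to-head row called higher at VILI 0 hours, which was listed at 0 in a control library, with 0.395 and 0.426 FPKM in the others, and had 0.586, 0.722 and 1.22 FPKM at VILI 0 hours.

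Akr1b3, the aldose reductase of the polyol pathway, faced the head-to-head row XLOC_121180. It had 1.48, 1.23 and 1.39 FPKM in control and 0.260, 0.710 and 0.971 FPKM at VILI 0 hours, a log2 fold change of -1.11 ± 0.40, and had 1.18, 0.895 and 0.850 FPKM at VILI 6 hours, where it was not called. The VILI 0 hours call was lost in 2 of 16 alternative settings. Akr1b3 itself had 36.1, 37.6 and 35.9 FPKM in control, 25.5 to 32.3 FPKM at VILI 0 hours and 20.3 to 31.9 FPKM at VILI 6 hours. The head-to-head row over Tmod1, an actin-capping protein whose promoter window is printed above, had 0.706, 0.827 and 1.29 FPKM in control and 0.245, 0.418 and 0.706 FPKM at VILI 0 hours. The groups meet at 0.706 FPKM, and the call was lost in 11 of 16 alternative settings. The row within Nr2c2, a nuclear receptor gene, had 1.03, 1.04 and 1.01 FPKM in control and 0.481, 0.647 and 0.805 FPKM at VILI 0 hours, and lost its call in 9 of 16. The higher row over Fmn2 also fell by 1.35 ± 0.54 on the log2 scale, a call lost in 7 of 17.

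**Figure D5:**
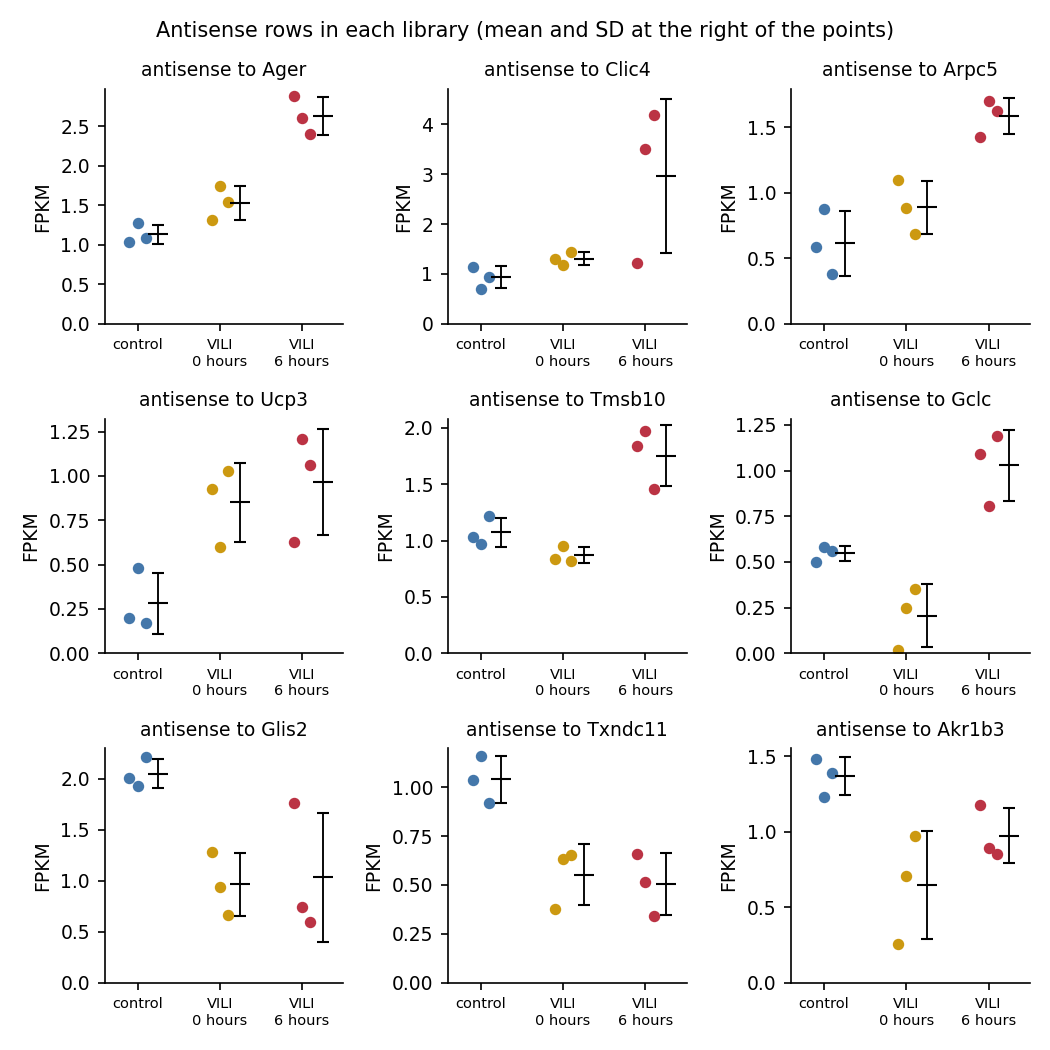
FPKM (vertical axes, from 0) of 9 antisense rows in each library of control (blue), VILI 0 hours (yellow) and VILI 6 hours (red), with the mean and SD of 3 libraries at the right of the points. Ager shows 3 groups without overlap between 1.04 and 2.88 FPKM, Clic4 has its VILI 6 hours replicate 1 at 1.22 FPKM, and Glis2 has every ventilated library below the control libraries.

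Between the ventilated groups 113 antisense rows were called (7.70%), 85 higher and 28 lower at VILI 6 hours. Among all rows 7.40% were called, 3.82% higher and 3.58% lower. Groups did not overlap in 114 antisense rows that were higher and 47 that were lower, beside 6.07% and 5.30% of all rows. Of the rows called higher 42, and of those called lower 7, reached 0.1 FPKM only through the group where they were high. The 1035 rows that reached it whichever group was left out had 43 higher and 20 lower calls (4.15% and 1.93%), beside 3.55% and 3.52% of all rows chosen alike, with 24 and 8 in the mirrored rows and 19 and 12 in the others. Without VILI 6 hours replicate 2 these 1035 rows had 21 and 22 calls, and 66 and 47 without replicate 1 and 39 and 20 without replicate 3. Lower calls were 13 and 14 without VILI 0 hours replicates 1 and 2. The median log2 difference of the 1035 rows was 0.11, and it was 0.18 without VILI 6 hours replicate 1, 0.02 without replicate 2 and 0.06 without VILI 0 hours replicate 2. Over all 1467 rows the fit without replicate 1 gave 155 higher and 56 lower calls, or 10.6% and 3.82%, beside 5.97% and 8.31% of all rows. Without replicate 2 there were 51 and 34, or 3.48% and 2.32%, beside 3.58% and 3.62% of all rows, so the share of higher calls was then no larger than that of all rows. By kind, the 1467 rows had 54 and 15 calls in the mirrored rows and 31 and 13 in the others with all libraries. Without VILI 6 hours replicate 1 these were 100 and 20, and 55 and 36. Without replicate 2 they were 33 and 17, and 18 and 17, so the split by kind also moved with single libraries.

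Gclc is the catalytic subunit of the enzyme that sets the rate of glutathione synthesis. Its antisense row XLOC_152442, within the gene at chr9:77754542-77781140, had 0.502, 0.579 and 0.560 FPKM in control, 0.0173, 0.246 and 0.354 FPKM at VILI 0 hours and 1.09, 0.808 and 1.19 FPKM at VILI 6 hours. The control libraries lay between the ventilated groups, and no group overlapped another. The log2 difference between VILI 6 and VILI 0 hours was 2.08 ± 0.50 (SE; adjusted p = 0.426, limma). The row was also called lower at VILI 0 hours against control, a call kept in 10 of 16 alternative settings. Gclc had 121, 41.6 and 45.2 FPKM at VILI 0 hours and 74.2, 74.3 and 192 FPKM at VILI 6 hours. The VILI 0 hours library with the most Gclc had the least of the row, while the VILI 6 hours library with the most Gclc had the most of it.

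The row within Tmsb10, a thymosin that binds actin monomers, XLOC_122599, had 0.839, 0.953 and 0.821 FPKM at VILI 0 hours and 1.84, 1.97 and 1.46 FPKM at VILI 6 hours, a log2 difference of 0.93 ± 0.22 (SE; adjusted p = 0.426, limma), while Tmsb10, at 198 to 250 FPKM, had a log2 difference of 0.06 ± 0.11. Inhbb, a subunit of activin B, faced the head-to-head row XLOC_003132 with 0.576, 0.381 and 0.373 FPKM at VILI 0 hours and 0.638, 1.07 and 0.880 FPKM at VILI 6 hours. Here the gene moved in the same direction, from 4.22, 3.30 and 4.01 FPKM to 5.17, 10.8 and 18 FPKM, and replicate 1 was the lowest of its group in both. The call of the Inhbb row was lost in 5 of 16 alternative settings. Higher calls also came from the rows over Hemk1, Map7d1, Kirrel3, a cell adhesion protein, Rpl4 and Col6a1, a collagen VI chain, with log2 differences of 1.94 ± 0.54, 1.22 ± 0.37, 1.20 ± 0.42, 0.93 ± 0.36 and 0.92 ± 0.33. The Hemk1 and Map7d1 calls held in all 16 settings, while those over Kirrel3, Rpl4 and Col6a1 were lost in 3 of 17, 4 of 16 and 3 of 16. The mirrored row over Luc7l3 fell, from 1.07, 1.66 and 1.46 FPKM to 0.214, 0.656 and 0.911 FPKM, a call lost in 3 of 17 settings, and Luc7l3 itself fell by 0.52 on the log2 scale.

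Few rows faced genes of the 17 lists. Of 18 neutrophil genes 3 faced an antisense row, S100a8 and S100a9, which form calprotectin, and Ltf, the granule protein lactoferrin. XLOC_095634, which comes in from beyond the end of S100a9, was listed at 0 in every control library, had 0.137, 0.498 and 0.261 FPKM at VILI 0 hours and 0.203, 0.702 and 0.975 FPKM at VILI 6 hours, and was called higher in both comparisons with control. The mirrored row over S100a8, XLOC_100215, was listed at 0 in every control library and had 0.108, 0.811 and 0.275 FPKM at VILI 6 hours, where it was called higher, and 0.102, 0.0678 and 0 FPKM at VILI 0 hours, where it was not. S100a9 had 23.4 to 29.3 FPKM in control and 238 to 1100 FPKM at VILI 6 hours, and S100a8 9.94 to 15.0 FPKM and 136 to 545 FPKM. The row over Ltf, XLOC_153572, was not called in any comparison.

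Of 26 inflammatory mediators 3 faced a row. XLOC_081739, mirrored over Lcn2, had 0.162, 0.164 and 0 FPKM in control and 0.185, 0.642 and 1.0 FPKM at VILI 6 hours, and was called higher there, but entered through that group. Lcn2 had 55.4, 80.2 and 58.8 FPKM in control and 152, 182 and 881 FPKM at VILI 6 hours. Head-to-head rows over Ccl3, a macrophage chemokine, and Il33, an epithelial alarmin, were not called, nor was a further row over Lcn2. Of 30 immediate early and stress genes 4 faced a row, and that over Klf2, an endothelial factor induced by flow, was called higher at VILI 6 hours. It was mirrored and had 0, 0 and 0.160 FPKM in control and 0.155, 0.560 and 0.747 FPKM at VILI 6 hours. The head-to-head row over Zfp36, a gene for an mRNA decay factor, had 1.44, 1.21 and 0.977 FPKM in control, 1.16, 1.85 and 1.55 FPKM at VILI 0 hours and 1.47, 0.906 and 0.727 FPKM at VILI 6 hours, overlapping throughout. Zfp36 itself was called higher, from 30.3 to 34.6 FPKM in control to 60.7, 73.6 and 117 FPKM at VILI 0 hours. Rela, the only member of 27 interferon and NF-kappaB genes with a row, and the 3 rows over the clock genes Per1 and Tef had no call in the fit of all libraries. The mirrored Per1 row XLOC_027953 had 0, 0 and 0.035 FPKM in control, 0.276, 0.112 and 0.105 FPKM at VILI 0 hours and 0, 0.559 and 0.362 FPKM at VILI 6 hours. Without VILI 6 hours replicate 1, the library at 0, it was called higher at VILI 6 hours (adjusted p = 0.0299, limma), the group through which it entered.

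Endothelial genes had 12 rows over 8 of 24 genes, of which 2 were called higher at VILI 6 hours, XLOC_087587 over Egfl7 and XLOC_128475 over Vwf, both mirrored. The Egfl7 row had 0, 0 and 0.269 FPKM in control and 0.405, 0.569 and 1.08 FPKM at VILI 6 hours while Egfl7, a secreted endothelial protein, had 213 to 231 and 199 to 211 FPKM. The Vwf row was listed at 0 in 7 libraries and had 0.525 and 0.510 FPKM in VILI 6 hours replicates 1 and 3. The rows over Vwf, S100a8, Lcn2 (both rows), Pdgfra, Foxp1, Axl, Ccn1, Tie1, Ltf and Rsph1 and the mirrored Per1 row averaged under 0.1 FPKM over the control and VILI 0 hours libraries, so they were included through VILI 6 hours alone and their higher values there are a description. Alveolar type 2 genes had 8 rows, over Lamp3, Lyz2, Napsa, Scd1, Sftpa1 and Sftpd, none called in any comparison. Alveolar type 1 genes had 5 rows, of which that over Ager was called. Fibroblast and matrix genes had 9 rows, of which that over Pdgfra was called higher at VILI 6 hours against control and that over Col6a1 against VILI 0 hours. Lung development factors had 7 rows without a call, club and ciliated genes had 3, of which that over Scgb3a2 was called higher at VILI 6 hours. Stretch targets (Axl and Ccn1) had 2 rows, and alveolar macrophage (Fabp4), B cell (Cd22) and cardiac muscle genes (Tnnt2) 1 each, without a call, while T cell genes had none. The erythroid gene Hba-a1, an alpha globin, faced a row without a call that had 0.446 to 0.634 FPKM in control, 1.07 to 1.89 FPKM at VILI 0 hours and 0.254, 1.49 and 1.40 FPKM at VILI 6 hours. Its lowest library was VILI 6 hours replicate 1, the library with the lowest erythroid sum. In the fit without VILI 6 hours replicate 1 the Vwf and Scgb3a2 rows lost their calls against control, and rows over Lcn2 (its other row), Klf4, Per1, Tef, Foxp1, Sftpa1, Sftpd, Col6a1, Hba-a1 and Axl gained a higher call, which for Lcn2, Per1, Foxp1 and Axl is a description of rows included through VILI 6 hours. Of the rows over the lists, those over Ager, S100a8, S100a9 and Per1 then had an adjusted p under 0.05 (limma), of which the S100a8, S100a9 and Per1 rows were listed at 0 in 4, 3 and 3 libraries. Without replicate 2 the rows over Lcn2 and Pdgfra lost their calls, and a row over Tef and that over Inmt were called lower. Without replicate 3 the rows over Lcn2, Vwf and Scgb3a2 lost their calls and a row over Tie1, included through VILI 6 hours, was called higher. These calls are few, and the share of all rows called was 13.2% at VILI 6 hours.

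A call of the row and a call of its gene coincided in part. They are compared over the 1035 rows that reached 0.1 FPKM whichever group was left out, of which 1008 had a tested gene. At VILI 6 hours, of the 86 rows called higher, the gene was called higher for 24 and lower for 4, and for 56 it was not called. Over the 1008 rows 12.9% of genes were called higher and 10.6% lower, and among all coding genes 20.7% were called, 8.42% higher and 12.3% lower. Of the 33 rows called lower the gene was called lower for 7 and higher for 2. Without VILI 6 hours replicates 1, 2 and 3 it was called lower for 25 of 71, 1 of 25 and 2 of 16, and higher for 3, 0 and 0. Of the 25 rows called lower at VILI 0 hours against control it was called lower for 2 and higher for 3. Of the 20 called lower between the ventilated groups it was called lower for 1 and higher for 2. In the fit without VILI 6 hours replicate 1, of the 135 rows called higher the gene was called higher for 52 and lower for 14, beside 20.4% and 22.7% of genes over the 1008 rows. Without replicate 2, of 48 rows, it was called higher for 7 and lower for 2, beside 9.03% and 9.82%. Without replicate 3, of 64 rows, it was called higher for 12 and lower for 3, beside 9.42% and 6.25%. At VILI 0 hours, of the 47 rows called higher, the gene was called higher for 15 and lower for 1, beside 12.2% and 7.34%. Among all coding genes 15.6% were called at VILI 0 hours, 7.24% higher and 8.37% lower. Between the ventilated groups the gene was called higher for 4 and lower for 2 of the 43 rows called higher, beside 5.85% and 6.85%, and among all coding genes 9.73% were called, 4.50% higher and 5.23% lower. Spearman's rho between the log2 fold changes of row and gene was 0.22, 0.22 and 0.11 over the 1008 rows in the 3 comparisons, as a description, since the points share libraries and groups and many rows share a gene.

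When VILI 6 hours replicate 1 was left out, 60 antisense rows had an adjusted p under 0.05 against control (limma), 44 higher and 16 lower, which is 4.09% of the rows beside 5.61% of all rows tested. Of the 44 rows 29 had entered through VILI 6 hours, so the choice of rows favoured their direction, and 15 reached 0.1 FPKM whichever group was left out. Of the 16 lower rows none had entered through VILI 6 hours and 12 reached it whichever group was left out. Of the 60 rows 28 were mirrored and 17 were above 0 in all libraries. Among the latter, named here after their values were seen, were those over Calcrl, with a log2 fold change of -3.27 ± 0.37 (adjusted p = 0.00719), Clic4, and Ccdc171, a coiled-coil protein gene, with 1.23 ± 0.19 (adjusted p = 0.0176). The Ccdc171 row had 1.66, 1.49 and 1.37 FPKM in control, 1.80, 4.05 and 3.29 FPKM at VILI 6 hours. In that fit 2 libraries remain at VILI 6 hours.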

How the data were processed

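Lung RNA was sequenced in 9 libraries, 3 per group, each from a separate mouse per the study's methods. The authors mapped reads to GRCm38 with TopHat2 2.0.9 and Bowtie2 2.0.6, assembled transcripts, and deposited FPKM values from Cuffdiff 2.1.1 (versions as in the submitters' processing notes). The deposited FPKM are scaled by transcript length and library size. The study reports the mapped reads of each library, but fragment counts per row were not used here and no count model was run.

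Here, rows were placed on GENCODE M21 (GRCm38), and log2(FPKM + 0.1) of every row with a mean of at least 0.1 FPKM was fitted with limma 3.58.1 (R 4.3.3, trended eBayes, group as the only factor), with Benjamini-Hochberg adjustment over 37142 rows. Coding genes were fitted alike on FPKM summed per gene. The fit was also run on simulated data with known changes, and no result given here rests on that run. Sequences are from GENCODE M21 transcripts and RefSeq promoters. Named rows are the 8 with the largest rise and fall per comparison among called rows with a mean of at least 0.5 FPKM, no library at 0 and no overlap between groups, the 3 each way with a library at 0, the 10 highest rows, and rows over 17 gene lists. The members and lists were chosen with earlier results of these data known, and the class of mirrored rows was defined after the lengths were seen. Levels by library and calls by kind of row were computed on the 1035 rows that reach 0.1 FPKM whichever group is left out, a choice made after the values were seen. Same-numbered libraries of different groups did not deviate together (correlations -0.159 to 0.026), so no pairing was used. Alternatives were other pseudocounts, filters, centring, fits on 6 libraries, no trend, a replicate block, and leaving out each library.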

Additional observations from a re-analysis of the deposited data

Results flagged for a closer look

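In 3 rows every VILI 0 hours library lay below every control library and every VILI 6 hours library above, so that the ventilated groups stood on opposite sides of control. The direct comparison of VILI 6 hours with VILI 0 hours gave a log2 difference of 2.08 for XLOC_152442 over Gclc, 0.93 (0.926) for XLOC_122599 over Tmsb10 and 0.82 (0.822) for XLOC_003132 over Inhbb, with adjusted p of 0.426, 0.426 and 0.615 (limma), none past 0.05. In this comparison the Gclc and Tmsb10 calls held under every alternative setting, and the Inhbb call was lost in 5 of 16. The Gclc row was also called lower at VILI 0 hours against control, a call kept in only 10 of 16 settings. With groups of 3 libraries no single library was tested as an outlier.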

How the results depend on the processing

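Called antisense rows, 108 at VILI 0 hours and 205 at VILI 6 hours against control and 113 between them, ranged from 82 to 126, from 133 to 329 and from 85 to 211 when each library was left out in turn. The highest counts came without VILI 6 hours replicate 1, the lowest without VILI 0 hours replicate 1 or replicate 3 (82 each) for the first comparison and without VILI 6 hours replicate 2 for the others. Rows past an adjusted p of 0.05 (limma), 0 in each comparison, ranged from 0 to 1, from 0 to 60 and from 0 to 5. They were 6 for VILI 0 hours against control when fitted on the 6 libraries compared, 1 and 7 for the comparisons with control on FPKM summed per locus, 1 for VILI 6 hours against control without a filter on low values, and 5 for it and 1 for VILI 6 against VILI 0 hours without a trend. At a mean of at least 1 FPKM 42 rows remained, with 4, 8 and 7 calls, of which 1, 5 and 5 were higher and 3, 3 and 2 lower, so at VILI 0 hours lower calls outnumbered higher ones. The counts were 37, 62 and 33 for rows above 0 in all libraries (20 higher and 17 lower, 42 and 20, 23 and 10), 47 higher and 25 lower, 86 and 33, and 43 and 20 for rows that reached 0.1 FPKM whichever group was left out, 44, 103 and 69 for mirrored rows alone and 64, 102 and 44 for the others, alternatives chosen after seeing the data. Centring each library on its median moved the split at VILI 0 hours from 72 higher and 36 lower to 98 and 23, and gave 186 and 38 at VILI 6 hours and 75 and 31 between the ventilated groups.

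Numbers of the replicates did not pair the libraries. With the number as a replicate block 91, 179 and 108 rows were called and none passed an adjusted p of 0.05. Of 555 values of the 34 named calls under an alternative, 431 kept the call, 124 lost it and none changed direction. The 12 calls kept throughout include those over Ager, Clic4, Arpc5, Ap3b1, Ucp3 and Hemk1. Low FPKM with libraries at 0 limits all rows, and the number of fragments behind each row was not worked out.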
